A study of Homo sapiens with 8 samples.

Results

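DET1 joins the ubiquitin ligase COP1 to the DDB1-CUL4 machinery, and the genes of that ligase were followed here through Ago2-RIP-Chip in the B-cell line ST486. The 9 genes were DET1, COP1 (also named RFWD2), DDB1, DDA1, CUL4A, CUL4B and RBX1, with the transcription factors JUN and ETV6. They were found through the RefSeq accession that the array gives for each probe, which assigned them 14 of the 41000 probes. COP1, DDA1, CUL4A, CUL4B and ETV6 have 2 probes each, and DET1, DDB1, RBX1 and JUN have 1 each. Of the 14 probes, 12 were among the 15529 probes kept by the filters on detection and on dye differences. The JUN probe and the second ETV6 probe were not. DET1 was chosen because of its ratio between the vectors in these same arrays, so its values are a description, and the other genes were chosen as its partners.

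ST486 derives from Burkitt lymphoma, a malignancy of germinal centre B cells. The cells had been transduced with the retroviral MXW-PGK-IRES-GFP vector, either empty (EV-ST486, EV cells for short) or carrying miR-155 (miR-155-ST486, miR-155 cells for short). Vector and GFP are thus common to both. The paper reports a sort of GFP-positive cells to check the overexpression, and does not state one for the immunoprecipitation. RNA came from whole lysate (the total fraction, T) and from an immunoprecipitate of Ago2, the Argonaute protein that carries a miRNA to its targets (the IP fraction). The 4 RNA samples were each labelled in Cy3 and again in Cy5. IP and total RNA of one vector shared an array, once in each dye orientation, so that 4 Agilent 44k arrays were used. The labellings are technical repeats, so each condition has n = 1, no test was possible and no p-value is given. Scan and vector cannot be told apart, since the arrays of EV and of miR-155 cells came from separate scans.

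A cullin-RING ligase is built on a cullin scaffold. The cullin binds a RING protein, which brings in the ubiquitin-conjugating enzyme, and an adaptor, which brings in the substrate receptor. In the DCX-DET1-COP1 ligase the scaffold is CUL4A (or its paralogue CUL4B), the RING protein is RBX1, the adaptor is DDB1 with the small protein DDA1, and DET1 together with COP1 holds the substrate. JUN, a component of the AP-1 transcription factor, is the classical substrate of this ligase in human cells. ETV6 is a transcriptional repressor of the ETS family, several members of which are handled by COP1. A miRNA finds its targets mainly through its seed, the stretch of bases 2 to 8 from its 5′ end, which pairs with complementary letters in the transcript. The mature miR-155-5p is shown because it is the molecule that was added to the cells, and its seed is in capitals.
hsa-miR-155-5p: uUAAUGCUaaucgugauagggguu
This RefSeq sequence of 24 bases lies at chr21:25573983-25574006 on the + strand of GRCh38.p14. In DNA letters, the transcript sequence that pairs with the seed and has an A opposite the first miRNA base is AGCATTAA, and its core of 6 letters is GCATTA. No transcript or 3′UTR of the 9 genes was searched for these letters here.

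DET1 had the highest miR-155/EV ratio of the 15529 kept probes. Its quantile-normalized signal in EV total RNA was 2181 with Cy3 and 2682 with Cy5, and in EV IP RNA it was 3177 and 3589. The corresponding DET1 signals were 1167 and 1330 in miR-155 total RNA and 21908 and 21794 in miR-155 IP RNA. Thus both miR-155 IP labellings lay above all 6 other channels and both miR-155 total labellings lay below all others. Here and below, such separations rest on repeat labellings, and the share of all kept probes that show them was not counted. DET1 was detected in 8 of the 8 channels, and its labellings differed by at most 1.23-fold within an RNA sample. The IP/T ratio, the mean IP signal over the mean total signal, was 1.40 in EV cells, with 1.18 from the arrays with IP RNA in Cy3 and 1.65 from those with total RNA in Cy3. In miR-155 cells the IP/T ratio of DET1 was 17.5, with 16.5 and 18.7 in the same orientations, but 7.19 after normexp background correction with quantile normalization, the lowest value over the alternatives in processing. The miR-155/EV ratio, the IP/T ratio in miR-155 over that in EV cells, was 12.6, and the dye orientations gave 13.9 and 11.3.

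The ratio of DET1 came from both fractions. Its IP signal was 6.47-fold higher in miR-155 than in EV cells (6.90 in Cy3 and 6.07 in Cy5), the third highest IP change of all kept probes. Its total signal was 0.515 times that in EV cells (0.535 in Cy3 and 0.496 in Cy5), and 73 kept probes had a lower total ratio. In RNA of a whole culture, less DET1 RNA per cell and fewer cells with DET1 RNA cannot be told apart. By IP/T ratio DET1 ranked 3449th of the kept probes in EV cells and 45th in miR-155 cells. The next probe in the order of miR-155/EV ratios, of TBRG1, had a ratio of 5.38, so that no kept probe lay between 5.38 and 12.6.

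**Figure D1:**
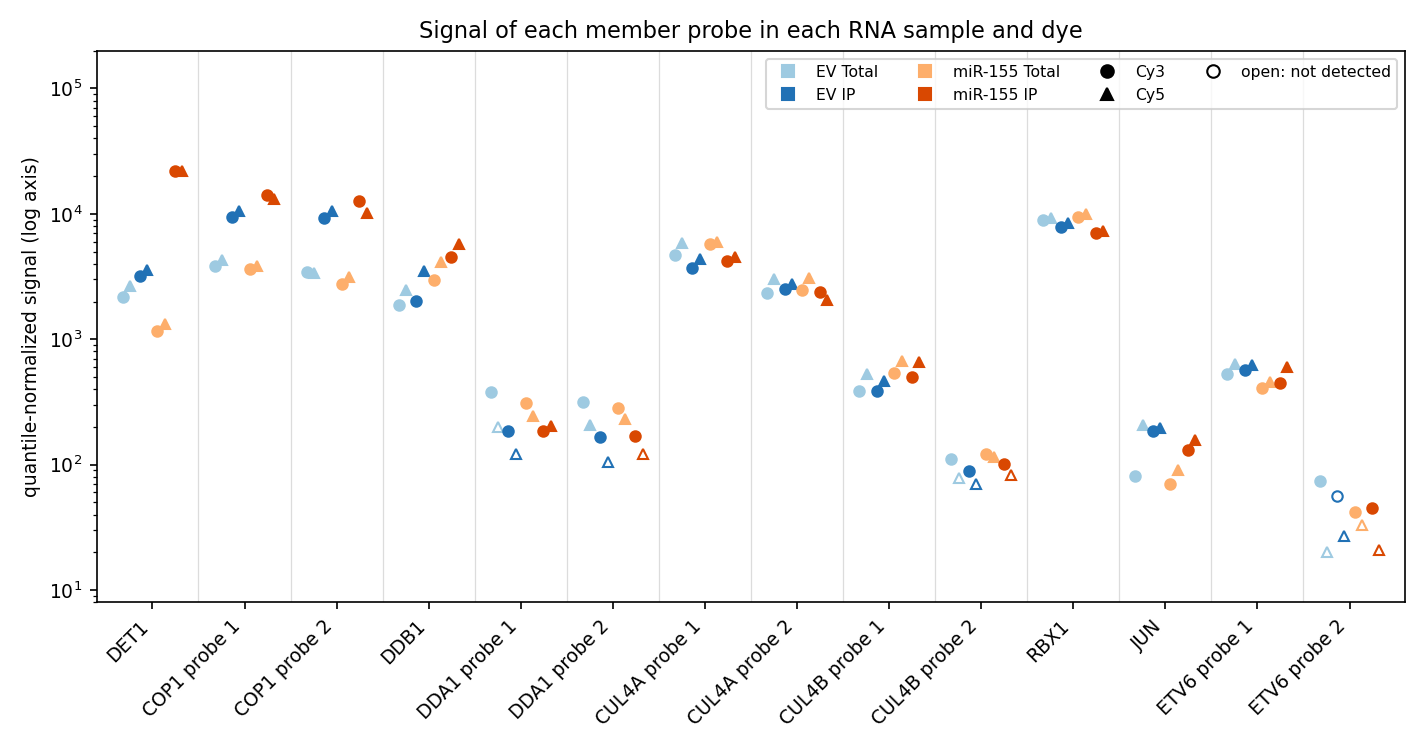
Quantile-normalized signal (log axis) of each of the 14 member probes in the 8 channels, coloured by RNA sample, with circles for Cy3, triangles for Cy5 and open symbols where the probe was not detected. The miR-155 IP signals of DET1, 21908 and 21794, stand apart from its other channels, which lie between 1167 and 3589. Levels of different probes are not comparable with each other.

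COP1, the RING protein that with DET1 holds the substrate, was enriched in the Ago2-IP of both vectors. Probe 1 had signals of 3821 (Cy3) and 4292 (Cy5) in EV total RNA, and of 9509 and 10476 in EV IP RNA. In miR-155 cells the same probe had 3638 and 3817 in the total fraction and 14203 and 13229 in the IP fraction. All 4 IP channels of this probe lay above all 4 total channels. Probe 2 of COP1 showed the same separation, with total signals between 2783 and 3451 and IP signals between 9329 and 12615 over both vectors. The IP/T ratio of probe 1 was 2.46 in EV and 3.68 in miR-155 cells. That of probe 2 was 2.92 and 3.84. With normexp correction, probe 1 was below 2 in EV cells, at 1.86 and 1.54 with quantile and loess normalization. With local backgrounds above 500 also replaced, it was at 2.33 and 2.51. Probe 2 in miR-155 cells was at 2.43 with normexp and quantile normalization. The probes of COP1 differed by 0.24 on the log2 scale in EV and by 0.06 in miR-155 cells, whereas the median difference between the probes of the 1734 genes with 2 kept probes was 0.44 and 0.36.

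At an IP/T ratio ≥ 2, the 2 COP1 probes were the only ones of the 12 kept member probes that passed in EV cells, where 12.1% of all kept probes passed. In miR-155 cells 3 member probes passed, those of COP1 and that of DET1, against 12.2% of all kept probes. The COP1 probes also passed in both vectors in each dye orientation, as did 8.20% of all kept probes. The miR-155/EV ratio of COP1 was 1.49 on probe 1 (1.68 and 1.33 by orientation) and 1.32 on probe 2 (1.45 and 1.20). On the log2 scale these are 0.58 and 0.40, above 95.5% and 90.1% of all kept probes. For 95% of all kept probes the dye orientations differed by at most 1.05. That is a spread between single orientations, wider than that of their mean, and the COP1 ratios were not tested. Over the alternatives in processing they lay between 1.33 and 1.92 on probe 1 and between 1.03 and 1.45 on probe 2. The total signal of COP1 in miR-155 cells was 0.920 times that in EV cells on probe 1 and 0.867 times on probe 2.

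At a miR-155/EV ratio ≥ 2, 1 of the 12 kept member probes passed, that of DET1, by which it was chosen, and 1.15% of all kept probes passed. Without DET1 the 11 other kept member probes had miR-155/EV ratios between 0.808 and 1.49 with a median of 1.08, and the median of all kept probes was 0.983. No kept member probe had a ratio of 0.5 or less, a range that held 0.477% of all kept probes.

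**Figure D2:**
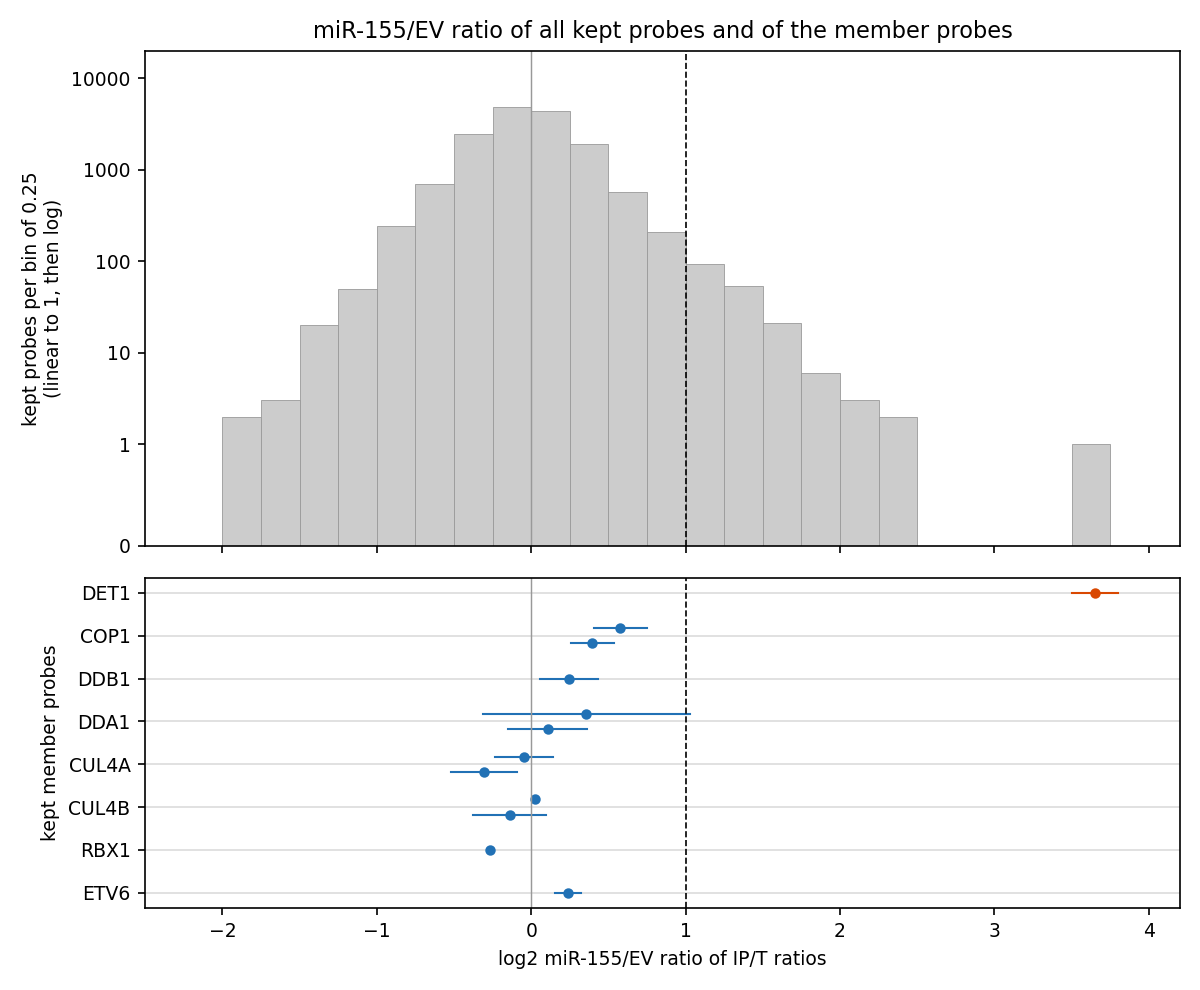
The upper panel counts the 15529 kept probes by log2 miR-155/EV ratio in bins of 0.25, and the lower panel shows the kept member probes as points with a line between the dye orientations. The dashed line marks a ratio of 2. DET1, at 3.65, lies in a bin of its own, and the other points lie between -0.31 and 0.58.

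The core of the ligase stayed below an IP/T ratio of 2 in both vectors, where 12.1% and 12.2% of all kept probes reached it. The 8 kept probes of CUL4A, CUL4B, RBX1, DDB1 and DDA1 had IP/T ratios from 0.515 to 1.23 in EV cells (median 0.870) and from 0.554 to 1.46 in miR-155 cells (median 0.759). The medians of all kept probes were 0.900 and 0.882. The miR-155/EV ratios of these 8 probes lay between 0.808 and 1.28. None of them was at 0.5 or less in either vector, where 10.0% and 9.83% of all kept probes were. With 8 probes, counts of 0 are close to these shares and say little about the core.

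CUL4A, the scaffold that binds DDB1 at one end and RBX1 at the other, had IP/T ratios of 0.772 and 0.748 on probe 1 and of 0.988 and 0.798 on probe 2, in EV and miR-155 cells. The signals of probe 1 ranged from 3709 to 4541 in the IP channels and from 4702 to 6003 in the total channels, without overlap. Those of probe 2 overlapped, with 2047 to 2752 in IP and 2330 to 3056 in total. CUL4B, the paralogue of CUL4A, gave IP/T ratios of 0.940 and 0.956 in EV and miR-155 cells on its brighter probe, whose miR-155/EV ratio was 1.02 (1.03 and 1.01 by orientation). The second CUL4B probe was dim, with signals between 70.5 and 122 and detection in 5 of the 8 channels, and its IP/T ratios were 0.847 and 0.769. Both CUL4B probes had a higher total signal in miR-155 cells, by 1.33-fold and 1.28-fold.

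RBX1, which recruits the ubiquitin-conjugating enzyme, gave the closest repeats of the members with the background subtraction used here. Its total signals were 8986 and 9258 in EV and 9429 and 9897 in miR-155 cells, in Cy3 and Cy5. Its IP signals were 7910 and 8400 in EV and 7081 and 7283 in miR-155 cells, so every IP channel lay below every total channel. The IP/T ratio was 0.894 in EV and 0.743 in miR-155 cells, and the miR-155/EV ratio of 0.832 was 0.837 and 0.826 by orientation. The direction in EV cells depended on the background correction, since the IP/T ratio of RBX1 was between 1.08 and 1.24 in the 4 settings with normexp, whereas in miR-155 cells it stayed between 0.741 and 0.807. Among these settings, RBX1 failed the filter on dye differences with loess normalization and high local backgrounds replaced.

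DDB1, the adaptor between cullin and substrate receptor, was the partner whose signal differed most between the vectors. Its total signal was 1868 in Cy3 and 2473 in Cy5 in EV cells, and 2943 and 4154 in miR-155 cells. Its IP signal was 2014 and 3488 in EV cells, and 4562 and 5706 in miR-155 cells. In each fraction both miR-155 labellings exceeded both EV labellings, and how many of all kept probes did so was not counted. The total signal was 1.63-fold higher in miR-155 cells (1.58 in Cy3 and 1.68 in Cy5) and the IP signal 1.92-fold higher (2.26 and 1.64). A total ratio of at least 1.5 was found for 5.37% of all kept probes, and DDB1 was 1 of 12 kept member probes past it. With both fractions higher, the IP/T ratio was 1.23 in EV and 1.46 in miR-155 cells and the miR-155/EV ratio 1.18. The orientations gave an IP/T ratio of 0.814 and 1.87 in EV cells, on opposite sides of 1, and normexp with loess normalization gave 0.895.

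DDA1, the small protein that binds DDB1, had the lowest IP/T ratios of the members with the background subtraction used here. They were 0.547 on probe 1 and 0.515 on probe 2 in EV cells, and 0.701 and 0.554 in miR-155 cells. Each DDA1 probe was detected in 6 of the 8 channels, and the channels in which they were not well above background were all in Cy5. Probe 1 was not detected in Cy5 in either fraction of EV cells, and probe 2 was not in the Cy5 IP channel of either vector. The orientations lay far apart, with IP/T ratios of 0.942 and 0.318 on probe 1 in EV cells and 0.804 and 0.330 on probe 2. The miR-155/EV ratio of probe 1 was 0.806 with IP RNA in Cy3 and 2.04 with total RNA in Cy3, which gave 1.28 in all, and that of probe 2 was 1.08. With normexp correction the IP/T ratios of DDA1 were nearer to 1, between 0.715 and 1.01 in EV and between 0.802 and 0.979 in miR-155 cells. In each of those 4 settings RBX1 was lower than both DDA1 probes in miR-155 cells, and the miR-155/EV ratio of DDA1 probe 1 was below 1.

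**Figure D3:**
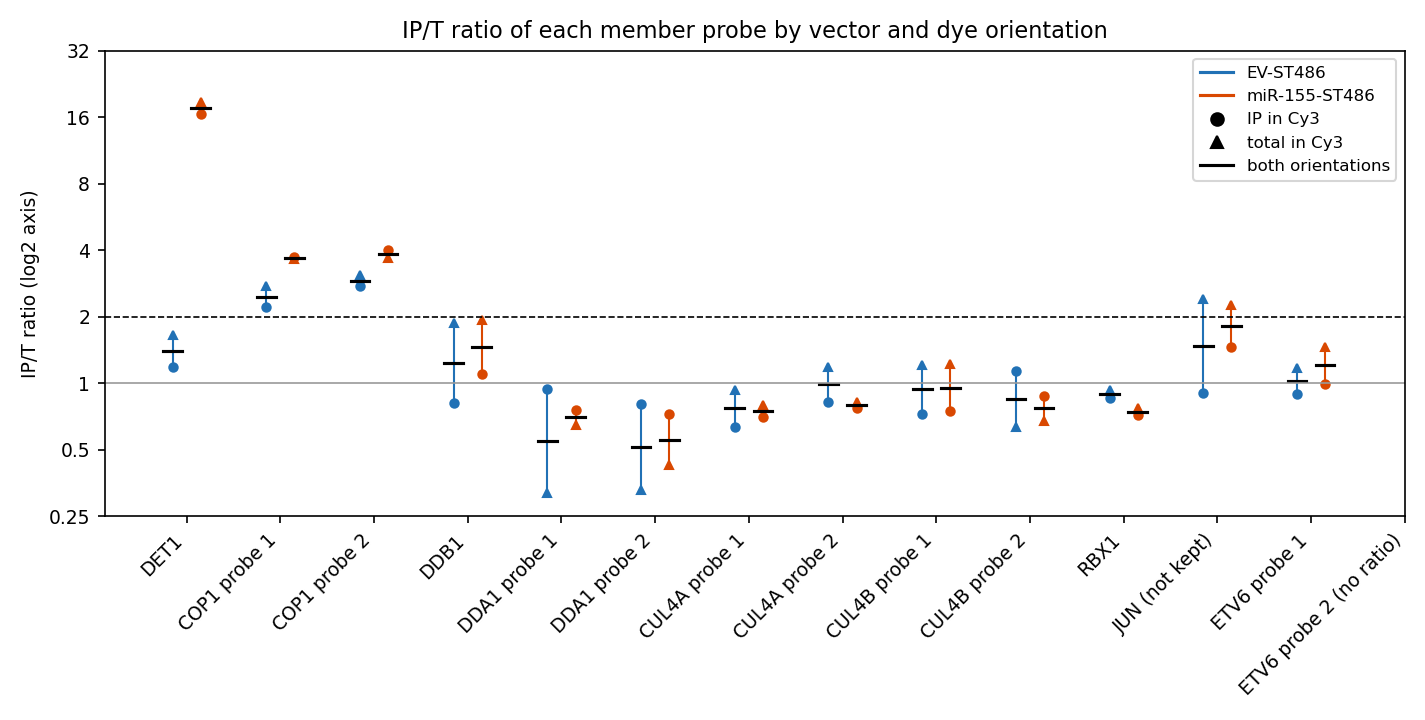
IP/T ratio (log2 axis) of the member probes in EV (blue) and miR-155 cells (orange), with circles for arrays with IP RNA in Cy3, triangles for arrays with total RNA in Cy3 and black bars for both together. The dashed line marks a ratio of 2 and the grey line a ratio of 1. The COP1 probes lie above 2 in both vectors, DET1 only in miR-155 cells at 17.5, and no ratio is drawn for the second ETV6 probe.

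The total and IP signals of the other members followed no common direction between the vectors. The 11 kept member probes without DET1 had total ratios of miR-155 over EV between 0.745 and 1.63 with a median of 1.03, against a median of 1.01 for all kept probes. Their IP ratios lay between 0.836 and 1.92 with a median of 1.14, against 1.00 for all kept probes. A total ratio of 0.5 or less was found for 0.380% of all kept probes and for 0 of the 12 kept member probes, of which DET1 came nearest at 0.515. An IP ratio of at least 2 was found for 1.28% of all kept probes and for DET1 alone among the members.

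**Figure D4:**
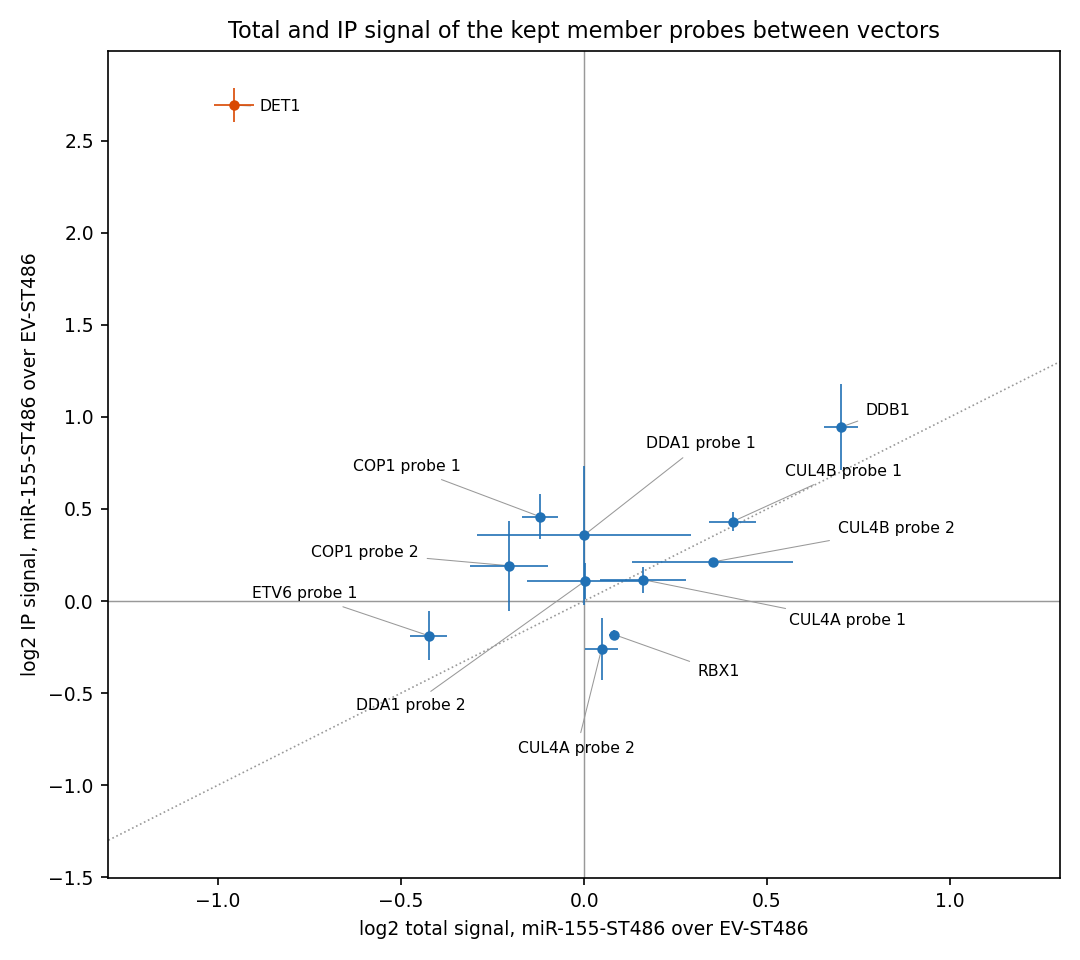
Log2 ratio of the IP signal (vertical axis) and of the total signal (horizontal axis) in miR-155 over EV cells for the 12 kept member probes, with bars that span the values of the Cy3 and Cy5 labellings. The dotted line marks equal change in both fractions. DET1 lies at -0.96 in total and 2.69 in IP, and DDB1 at 0.70 and 0.94.

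JUN was measured by 1 probe that is printed in 10 spots on each array, and it was dim. Its quantile-normalized signal was 80.7 (Cy3) and 206 (Cy5) in EV total RNA, and 187 and 194 in EV IP RNA. In miR-155 cells it was 69.6 and 90.5 in the total fraction and 132 and 158 in the IP fraction. The EV total labellings differed by 2.56-fold, which removed the probe at the limit of 2-fold although it was detected in 8 of the 8 channels. Detection in a channel needed only 1 passing spot. All 10 spots passed in each Cy3 channel. In Cy5, 6 passed in EV IP, 7 in miR-155 IP, 9 in miR-155 total and 5 in EV total RNA. In the Cy5 channel of EV total RNA the 10 spots ranged from 53.9 to 390 before normalization, with a coefficient of variation of 65.9%, and 2 were flagged as outliers. The 50 probes with 10 spots and a similar signal in that channel had a median of 40.5%. In the Cy3 channel of the same RNA the JUN spots ranged only from 68.4 to 84.2.

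The IP/T ratio of JUN was 1.48 in EV cells, with 0.907 and 2.41 by orientation, and 1.81 in miR-155 cells, with 1.46 and 2.26. In miR-155 cells both IP labellings exceeded both total labellings, and in EV cells the fractions overlapped. With normexp correction, where the probe passed the filters, the IP/T ratio of JUN in miR-155 cells was between 1.04 and 1.14. The miR-155/EV ratio of JUN was 1.23, with 1.60 and 0.940 by orientation, on opposite sides of 1. With outlier spots left out, where the probe was kept, the IP/T ratio was 1.72 in EV and 1.82 in miR-155 cells. The miR-155/EV ratio was then 1.05. The total signal of JUN was 0.863 times the EV value in Cy3 and 0.439 times in Cy5, and the IP signal was 0.704 times in Cy3 and 0.811 times in Cy5. These arrays measure RNA, and the substrate relation between the ligase and JUN concerns protein, which was not measured on them.

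ETV6 was carried by probe 1, with an IP/T ratio of 1.03 in EV and 1.21 in miR-155 cells and a miR-155/EV ratio of 1.18 (1.11 and 1.25 by orientation). Its total signal was 531 in Cy3 and 630 in Cy5 in EV cells and 410 and 453 in miR-155 cells. The labellings of the vectors did not overlap, and the ratio of the means was 0.745. The second ETV6 probe was detected in 3 of the 8 channels and in neither labelling of the EV IP fraction. Its signals lay between 20.3 and 74.6, and no ratio is given for it.

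The wider pathway was described with lists of related genes, each read beside all kept probes and without a test. Together, 88 kept probes of 63 genes outside the 9 members were covered. An IP/T ratio ≥ 2 was found for 17 of them (19.3%) in EV and for 17 (19.3%) in miR-155 cells, against 12.1% and 12.2% of all kept probes, with which the counts of each list at this ratio are also to be read. An IP/T ratio of 0.5 or less was found for 8 (9.09%) in EV cells, where 10.0% of all kept probes had one, and for 7 (7.95%) in miR-155 cells, where 9.83% had one. A miR-155/EV ratio ≥ 2 was found for 1 (1.14%), close to the 1.15% of all kept probes, and a ratio of 0.5 or less for 0. The median miR-155/EV ratio over the 88 probes was 0.984.

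The COP9 signalosome removes NEDD8 from cullins and so switches the ligases off. Its 9 kept probes had a median IP/T ratio of 0.673 in EV and 0.681 in miR-155 cells, and 2 of them reached 2 in each vector. COPS7B was highest, at 2.64 and 3.33, and COPS8 lowest, at 0.609 and 0.523. The genes that attach NEDD8 or exchange the substrate receptors gave 16 kept probes with medians of 0.847 and 0.928, of which 3 reached 2 in each vector. DCUN1D4, a co-factor of cullin neddylation, was highest in EV cells at 6.88, with 5.62 in miR-155 cells, and NEDD8 itself was lowest on one of its 3 probes, at 0.422 and 0.442. The DCUN1D4 probe was detected in only 1 of 2 labellings of EV total RNA. Of the other cullins, 2 of 6 kept probes reached 2 in EV and 1 in miR-155 cells. CUL2 was highest at 3.16 and 2.34, and CUL1, the scaffold of the SCF ligases, lowest at 0.378 and 0.458. The CUL2 probe too was detected in only 1 of 2 labellings of EV total RNA.

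The other substrate receptors of CUL4 were the largest list, with 32 kept probes and medians of 0.941 and 0.788. Of these, 4 passed an IP/T ratio ≥ 2 in EV and 6 in miR-155 cells. DCAF10 was highest in EV cells, at 4.48 with 4.50 in miR-155 cells, and CRBN, the receptor bound by thalidomide, lowest in EV cells on one probe, at 0.445 with 0.484 in miR-155 cells. The probe with a miR-155/EV ratio ≥ 2 was one of BRWD1, a bromodomain protein with WD repeats. Its ratio was 3.26 (2.45 and 4.33 by orientation), from IP/T ratios of 1.08 and 3.52. It was detected in 6 of the 8 channels, in 1 of 2 labellings of each EV fraction. The study had picked BRWD1 on these same arrays, so it is no independent observation. A second kept BRWD1 probe had a ratio of 1.57.

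The UBE2E enzymes, which hand ubiquitin to COP1 complexes, gave 4 kept probes, none of which reached an IP/T ratio of 2. UBE2E1 was lowest in EV cells, at 0.451 with 0.711 in miR-155 cells, and one probe of UBE2E3 highest, slightly above 1, with 0.909 in miR-155 cells. The UBE2E1 probe was detected in only 1 of 2 IP labellings of each vector. Among the adaptors and further substrates of COP1, 4 of 16 kept probes reached 2 in each vector, and their median was 1.46 in EV and 1.07 in miR-155 cells. TRIB1, a pseudokinase that brings C/EBP proteins to COP1, had the highest IP/T ratio of the pathway lists in EV cells, at 10.1, with 9.09 in miR-155 cells. CEBPB, a member of the C/EBP family, was named after its values were seen, at 9.99 and 10.2. The dye orientations gave 9.39 and 10.8 for TRIB1 in EV cells, a wider gap than that between the vectors.

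Of the AP-1 partners of JUN, 4 of 14 probes were kept and 5 were detected in 0 channels. JUNB, the JUN paralogue, was highest, with an IP/T ratio of 2.71 in EV and 1.86 in miR-155 cells, and ATF2, a partner of JUN in AP-1 dimers, lowest, at 0.936 and 0.784. Of the kinases that phosphorylate JUN and the kinases above them, 1 probe was kept, that of MAP2K4, at 2.11 and 2.39.

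**Figure D5:**
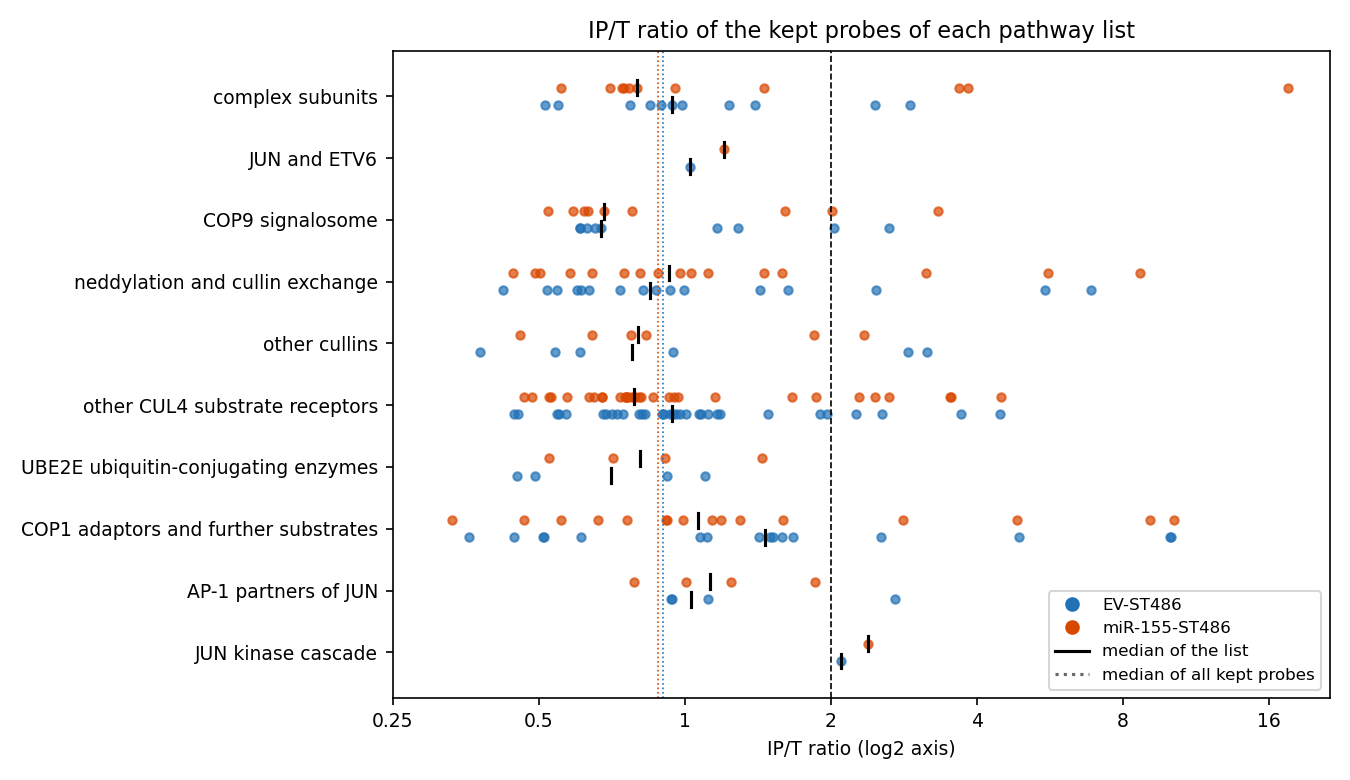
IP/T ratio (log2 axis) of every kept probe of each list in EV (blue) and miR-155 cells (orange), with black bars at the list medians, dotted lines at the medians of all kept probes (0.900 and 0.882) and a dashed line at 2. The complex subunits are the 7 ligase members, and DET1 at 17.5 in miR-155 cells is the point farthest to the right.

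The probes most like DET1 were found by the root mean square difference of log2 signals over the 8 channels, each probe being centred on its own mean. Among 11043 kept probes with a gene symbol, TBRG1 was nearest with a difference of 0.35, followed by PSIP1 (0.49), USPL1 (0.57), JARID2 (0.61) and TAB2 (0.62), whereas the median over all of them was 1.60. In EV cells these 5 had IP/T ratios between 2.15 and 2.75, above the 1.40 of DET1, and in miR-155 cells between 6.44 and 11.6, below the 17.5 of DET1. Their total ratios between the vectors lay between 0.612 and 0.996, and that of DET1 was 0.515. The order rests on the same channels by which DET1 was chosen, and the study had picked TBRG1 (as NIAM), PSIP1 and JARID2 on these same arrays. For TBRG1 the paper reports a further probe, which detects both main isoforms and was not enriched in the IP fraction. The probes most like JUN were those of WFDC10B (0.23), TRIP6 (0.24), ZNF91 (0.24), IFT80 (0.25) and BTN3A1 (0.25), against a median of 0.73 over the probes compared. None of the complex subunits was among the probes nearest to DET1 or to JUN.

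The labelled cell type was checked on marker genes. The B-cell markers MS4A1, CD79A, CD79B, BLK and CD74 were detected in 8 of the 8 channels, while PAX5 was detected in 0. All 5 probes of the T-cell markers were detected in 0 channels, and their summed signal was between 98.5 and 149 per channel. Of the germinal centre markers, MME was detected in 8 channels and LMO2 in 0. On the brightest MYBL1 probe, IP over total RNA gave 12.6 in EV cells, and a dim MYBL1 probe detected in 4 channels had a miR-155/EV ratio of 2.05. Of the 5 probes of plasma cell markers, 1 of XBP1 and 1 of SDC1 were detected in 8 channels, with mean signals of 14814 and 1635 in EV total RNA, while PRDM1 was detected in 2. The IP/T ratio of this list in EV cells was highest for SDC1, at 1.22, and lowest for the second XBP1 probe, detected in 5 channels, at 0.549. Of the monocyte probes 3 of 4, of the erythroid probes 2 of 4 and of the epithelial probes 4 of 6 were detected in 0 channels, while 1 probe of KRT8 was detected in 8. Between 14094 and 22161 of the 41000 probes were detected per channel, with fewer in Cy5 than in Cy3 for each RNA sample, and 0 were saturated.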

How the data were processed

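The authors deposited the intensity of each spot as extracted with Agilent Feature Extraction 10.5.1.1, which per the file headers subtracted the background and normalized the dyes of each array, and log2 values that they had quantile-normalized in GeneSpring and filtered. The intensities were the source of the values given, and the deposited log2 values of 14453 probes served as an alternative, of which 99.9% lay within 0.05 of the values made here. Each array was deposited identically under both of its channels, and from each copy only the dye in the sample's label was read. After control spots were left out (43376 spots of 41000 probes remained), the spots of one probe were averaged, 1 was taken as the floor, and log2 values were quantile-normalized over 8 channels. A probe counted as detected when any of its spots was flagged well above background and also positive and significant. This held in at least 4 channels for 19469 probes, and 15529 of them were within 2-fold between the labellings of every RNA sample and were kept. Ratios were taken between means of log2 values, with the arrays of each dye orientation also alone. The error given is thus that of labelling and hybridization, and the number of arrays limits the precision.

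Gene symbols came from the RefSeq table through the array's accessions, which named 23958 probes, and no gene coordinates were used. The array was designed on an earlier genome build. Members and lists were chosen with earlier results of these data known. The text names every member probe, of each pathway list the kept probe with the highest and the lowest IP/T ratio in EV cells and any with a miR-155/EV ratio ≥ 2 or ≤ 0.5, and the 5 probes most like DET1 and most like JUN. Other genes were named after their values were seen. The ratio calculation was tested on simulated data. Alternatives were normexp background correction (offset 50, on median signal and median local background) with quantile normalization or with loess and Aquantile, the same with local backgrounds above 500 replaced (33 spots), no quantile normalization, the deposited log2 values, other filters, arithmetic means, outlier spots left out, each orientation alone and, added after JUN's spots were seen, the median of spots. Tools were limma 3.58.1 in R 4.3.3 and pandas 2.3.3, numpy 2.4.6 and matplotlib 3.10.9 in Python 3.11.15. The arrays of the other cell lines of the study were not analysed here. Single values of some genes on the lists are not reported here.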

Additional observations from a re-analysis of the deposited data

How the results depend on the processing

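Under 14 alternatives the miR-155/EV ratio of DET1 stayed above 6, and it exceeded that of every other kept probe in all but the one without a filter on detection, where it was second. It was 6.25 with normexp and quantile normalization and 10.2 with normexp, loess and Aquantile, where the labellings of DET1 differed by more than 2-fold, so that 0 member probes passed a ratio of 2. With either orientation alone it was between 11.3 and 13.9, and between 1 and 2 member probes passed, since DDA1 probe 1 reached 2.04 in one. With both of these normexp settings 1 member probe instead of 2 had an IP/T ratio ≥ 2 in EV cells, as COP1 probe 1 was at 1.86 and 1.54. That probe was at 2.33 and 2.51 where high local backgrounds were replaced, and the cause was not tested. Of 568 values in all, 502 moved by no more than the SD of the dye orientations and 66 moved further. This count says little of stability. The settings with other filters left every ratio unchanged, and each orientation alone was compared with a spread that it helped to set. No ratio at or beyond 2 or 0.5 turned to the other side of 1, but 43 of the 568 values, for ratios reported between 0.5 and 2, lay on the other side of 1, 23 of them in the 4 settings with normexp. Among these were the IP/T ratio of RBX1 in EV cells (1.08 to 1.24), that of CUL4A probe 2 in the same cells (up to 1.27) and, with loess, that of DDB1 (0.895). Over all kept probes, the number at an IP/T ratio ≥ 2 in EV cells fell from 1873 to 439 and 145 with these normexp settings, and to 1106 and 888 where high local backgrounds were replaced. In miR-155 cells it fell from 1888 to 469 and 421, and to 1143 and 1255. Those at a miR-155/EV ratio ≥ 2 numbered 179, and 24, 48, 49 and 68 with the normexp settings, 315 without the detection filter, 403 without the dye filter and 345 with total RNA in Cy3 alone. JUN was kept in 7 of the 14 alternatives (the 4 with normexp, the deposited log2 values, outlier spots left out and no dye filter) and lay between 0.907 and 2.41 in IP/T ratio in EV cells over the alternatives, and between 1.04 and 2.26 in miR-155 cells. A fit with the scan as a block could not be made, because 0 scans held arrays of both vectors. No paired analysis was possible because the replicate numbers are the dyes of 1 RNA sample and mark no shared animal, culture or day. The DDA1, JUN and second CUL4B and ETV6 probes lay near background, where their ratios are least precise.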
